A study of Saccharum hybrid cultivar with 68 samples.

Results

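Stem messenger RNA of the sugarcane genotype ROC22 was set against that of GT86-887 at the early stage of sucrose accumulation. The members were chosen by genotype, tissue and growth phase as labelled, which gave 3 ROC22 and 3 GT86-887 libraries, 6 of the 68 samples of the series. Both groups are stem of Saccharum hybrid cultivars. The labels name no treatment, plant age, internode or growing condition for either. The design text states that the genotypes contrast in sucrose content, without naming the one that is richer in sucrose. Nothing in the labels ties the 3 libraries of a genotype to separate plants. Each p-value reflects variation among libraries, pooled over all groups of its fit, and that variation could be technical. Stem libraries of the middle and late stages, early leaf libraries, early stem small RNA libraries (3 per group) and 1 early stem degradome library per genotype were used beside them.

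Sugarcane loads sucrose made in its leaves into the stem, where it accumulates in storage parenchyma while the stem elongates and its walls lignify. Modern sugarcane genotypes are highly polyploid hybrids that carry many copies of most genes. A microRNA (miRNA) is a short RNA that guides an Argonaute protein to matching mRNAs. In plants this often cleaves the mRNA opposite the middle of the miRNA, and the new ends can be sequenced as degradome tags. Many conserved plant miRNA families act on transcription factors of development, others on auxin signalling or on nutrient and copper proteins.

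The expression table identifies assembled transcripts (called unigenes below) only by number and pairs them with no gene name. What can be said of a unigene's kind rests on the degradome table, which pairs some unigenes with a miRNA. The mature sequences below are those of the miRNA entries that the results on paired unigenes turn on, written 5′ to 3′ with bases 2 to 8, the seed, in capitals. The endings x, y and z are those of the deposited names.
miR530-x: cTGCATTTgcacctgcacctc
miR530-z: tGCATTTGcacctgcacctct
miR444-y: tGCAGTTGttgtctcaagctt
miR444-z: tGTTGTCTcaagcttgctgcc
miR393-x: cTCCAAAGggatcgcatttt
miR393-z: tCCAAAGGgatcgcattgatt
miR167-x: tGAAGCTGccagcatgatctga
miR156-x: tTGACAGAagagagtgagcac
miR164-x: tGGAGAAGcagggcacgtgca
miR169-z: tAGCCAAGgatgacttgcctact
miR172-y: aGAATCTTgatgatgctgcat
miR827-y: tTAGATGAccatcagcaaaca
The miR530 entries are the same sequence shifted by 1 base, so their seeds differ although they cover nearly the same target bases. The same holds for the start of the miR393 entries. No pair among these 12 entries has the same seed. The 2 miR444 entries start at different places and overlap over part of their length.

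The 6 early stem libraries held 19241718 to 24929466 counts each, with 43332 to 46545 unigenes at 1 count or more. Of the 100182 unigenes in the table, 36199 had enough counts over the 18 stem libraries to be tested. On the log2(CPM + 1) scale, Pearson's r across unigenes was 0.984 to 0.989 between libraries of one genotype and 0.911 to 0.918 between genotypes (CPM is a count relative to the library total, scaled by the TMM method). Unigenes without names could not be checked against stem markers. A set of 64 unigenes over 10-fold higher in late stem than in late leaf, defined without the early libraries, summed to 141900, 137600 and 190100 CPM in the ROC22 early stem libraries and to 38390, 104400 and 46250 CPM in those of GT86-887, against 326 to 525 CPM in the early leaf libraries (CPM here without TMM scaling). Most of that sum was 1 unigene, c121077.graph_c0, at 91.0% to 93.7% of it in ROC22 libraries and 59.3% to 85.9% in GT86-887 libraries. Without it the set summed to 11330, 12440 and 11960 CPM in ROC22 and 15620, 14770 and 15760 CPM in GT86-887, so the remaining sum was lower in every ROC22 library. One library outside the 6 stood apart: GT86-887 middle stem replicate 1 had a mean r of 0.928 with its own group, 0.917 with its own genotype and 0.933 with ROC22. It adds to the spread that the 18 stem libraries share in the fit. Counts of the genotype comparison at each stem stage and of the differences between stages are given with and without it.

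In early stem, the genotypes differed over more than 1 unigene in 3, in nearly equal numbers of each direction. Of the 36199 unigenes tested, 13547 passed an adjusted p of 0.05 (37.4%), 6628 of them higher in ROC22 (18.3%) and 6919 lower (19.1%), by edgeR's quasi-likelihood test with Benjamini-Hochberg adjustment. At least a 2-fold difference was also present in 4125 unigenes that were higher (11.4%) and 5183 that were lower (14.3%), together 25.7% of those tested. Without GT86-887 middle stem replicate 1 in the fit, 16192 of 37679 tested unigenes passed (43.0%), all of the 13547 among them. The count filter was applied anew in that fit, so more unigenes were tested. The median log2 fold change over all tested unigenes was -0.00736. The 3 libraries of one genotype all lay above the 3 of the other for 20543 unigenes (56.8%).

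**Figure D1:**
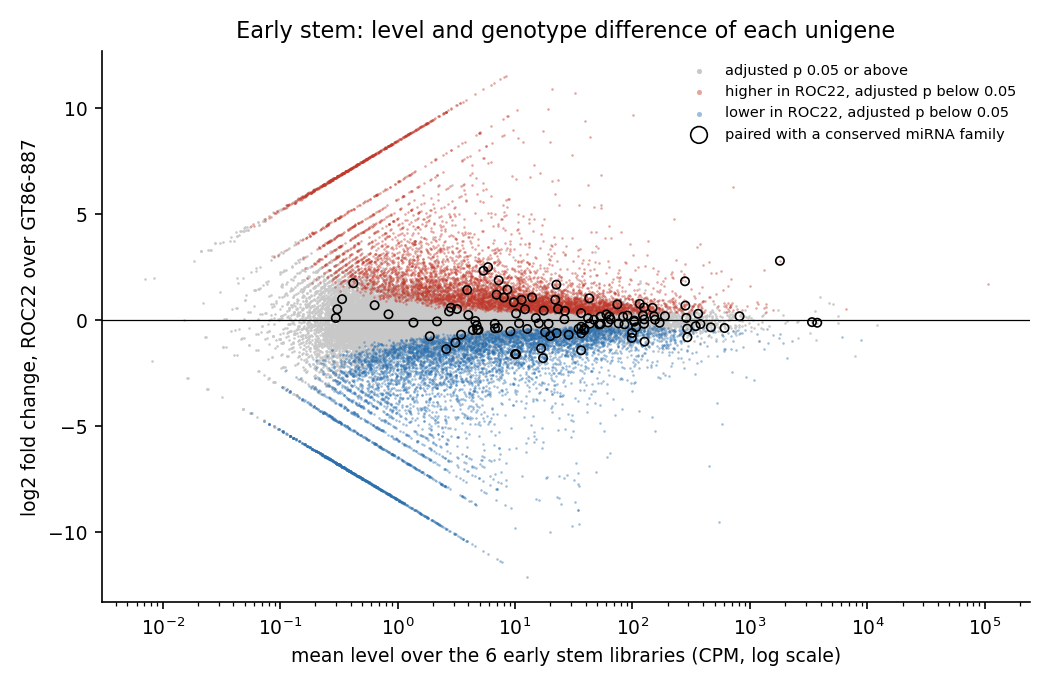
Each point is 1 of the 36199 tested unigenes, with its mean level over the 6 early stem libraries (CPM, log scale) across and the log2 fold change of ROC22 over GT86-887 up. Red and blue points passed the test (6628 higher and 6919 lower in ROC22), circles mark unigenes paired with a conserved miRNA family, and the diagonal bands are unigenes with 0 or few counts in a genotype, whose fitted fold depends on a small added prior count.

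Sizes ran from small to very large. Among unigenes that passed and were counted in both genotypes, the median absolute log2 fold change was 1.38, against 0.597 over all tested unigenes counted in both. Of these, 1703 were at least 4-fold higher in ROC22 and 2357 at least 4-fold lower, and 225 were at least 32-fold higher and 454 at least 32-fold lower. The share that passed changed little with level: it was 33.2% of unigenes under 1 CPM, 38.9% of those between 1 and 10 CPM, 39.1% between 10 and 100 CPM and 37.8% between 100 and 1000 CPM. The size did change with level, with a median absolute log2 fold change of 1.18 under 1 CPM and 0.341 from 100 to 1000 CPM. These medians by level cover all tested unigenes, passed or not, with those at 0 in a genotype included. The part of counting noise in them was not separated. Among the 61 unigenes above 1000 CPM, 13 rose and 14 fell in ROC22 (44.3%), with a median absolute log2 fold change of 0.577.

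The unigenes named here had the largest differences among those that passed and averaged at least 100 CPM. At least 10 counts in each library and groups without overlap were also required. Presence in every library and lack of overlap thus follow from the choice, and unigenes at 0 in a library were left out. Each was far lower in one genotype than in the other. c124986.graph_c0 had 1091, 1387 and 1801 CPM in ROC22 libraries, against 19.6, 23.7 and 12.6 CPM in GT86-887 libraries. Its log2 fold change was 6.26 ± 0.59 (SE, adjusted p = 2.53e-06). All ROC22 libraries lay far above all GT86-887 libraries. The log2 fold change was 6.42 in late stem, 3.81 in middle stem (4.73 without GT86-887 middle stem replicate 1) and 3.79 in early leaf, and stem minus leaf passed (2.45, adjusted p = 0.000719). c113334.graph_c0 had 181, 499 and 623 CPM in ROC22 libraries, against 8.65, 32.5 and 6.71 CPM in GT86-887 libraries. The ROC22 values spread widely among themselves but did not overlap those of GT86-887 (log2 fold change 4.77 ± 1.10, adjusted p = 0.00332).

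Lower in ROC22 were c129914.graph_c0 and c119183.graph_c1. c129914.graph_c0 had 7.75, 8.95 and 7.48 CPM in ROC22 libraries, against 283, 370 and 263 CPM in GT86-887 libraries. Both groups were tight and stood far apart (log2 fold change -5.24 ± 0.24, adjusted p = 2.65e-09). c119183.graph_c1 had 26.2, 43.3 and 45.5 CPM in ROC22 libraries, against 802, 2129 and 459 CPM in GT86-887 libraries. Here the GT86-887 libraries varied widely, with replicate 2 highest, and all of them lay above ROC22 (log2 fold change -4.88 ± 1.16, adjusted p = 0.0039).

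The most abundant unigene of early stem, c121077.graph_c0, took a large share of all reads. It held 13.1%, 12.51% and 17.8% of the counts of the ROC22 libraries, against 2.28%, 8.97% and 3.05% of those of the GT86-887 libraries. Its level was 137200, 139200 and 208400 CPM in ROC22, against 22880, 94220 and 31600 CPM in GT86-887. Every ROC22 library was above every GT86-887 library, but GT86-887 replicate 2 lay between the ROC22 libraries and the other GT86-887 libraries. Its deposited FPKM, a level per length, was 188222, 183461 and 258135 in ROC22 and 33098, 131424 and 44585 in GT86-887. The log2 fold change was 1.71 ± 0.57 (adjusted p = 0.028). Without ROC22 replicate 3, GT86-887 replicate 1 or GT86-887 replicate 3, the adjusted p was 0.0865, 0.111 and 0.106. In early leaf the unigene was at 19.4 ± 9.40 CPM in ROC22 and 13.1 ± 3.09 CPM in GT86-887 (SD, n = 3 each). Both leaf groups were thus far below both stem groups.

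**Figure D2:**
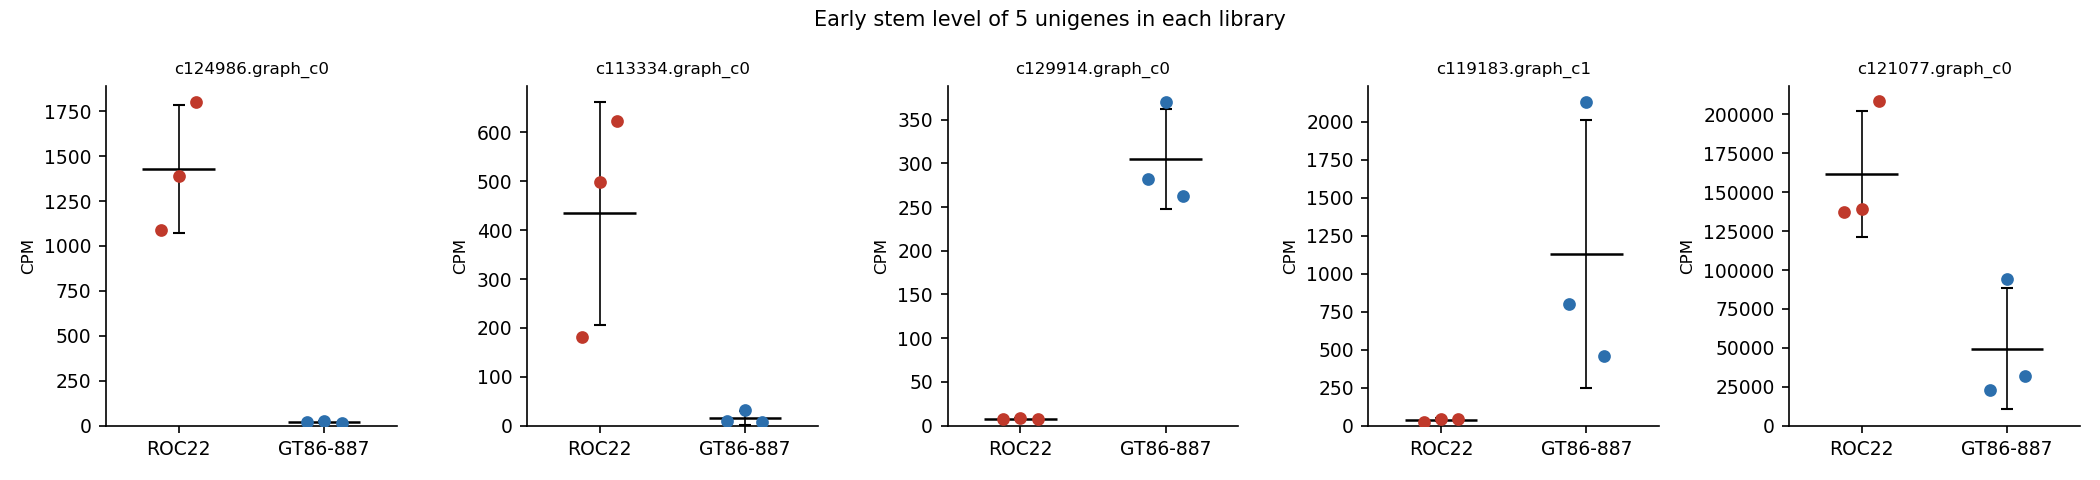
CPM of 5 unigenes in each of the 3 ROC22 and 3 GT86-887 early stem libraries (points), with the mean (line) and SD (bar). The first 2 panels are higher in ROC22, the next 2 lower, and the last is the most abundant unigene, for which GT86-887 replicate 2, at 94220 CPM, lies between its own group and ROC22.

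Leaf-preferring unigenes were low in these stems. Of 488 unigenes over 10-fold higher in late leaf than in late stem, 389 were tested, 52 were higher and 45 lower in ROC22 (24.9%, against 37.4% of all). They summed to 8673, 5326 and 4857 CPM in the ROC22 libraries and to 10830, 6382 and 6770 CPM in the GT86-887 libraries, ranges that overlap, against 196600 to 236200 CPM in early leaf. Of the 64 stem-preferring unigenes, 16 rose and 8 fell in ROC22 (37.5%). Fewer cells of a type and less RNA per cell cannot be told apart in such bulk samples.

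A small part of the unigenes was counted in only one of the genotypes. Of the 36199 tested, 305 were found in ROC22 alone and 465 in GT86-887 alone. This required at least 10 counts in each library of one genotype and 0 in all 3 libraries of the other. A count of 0 allows up to 3 counts in a library. Of the 305 ROC22 unigenes, 232 were also at 0 in late stem of GT86-887 and 246 in its early leaf. Of the 465 GT86-887 unigenes, 400 were also at 0 in late stem of ROC22 and 379 in its early leaf. Other unigenes of low level were not counted in the same way for comparison. These unigenes were low: the ROC22 set summed to 656, 686 and 660 CPM in ROC22 and the GT86-887 set to 917, 894 and 914 CPM in GT86-887. How the authors assigned reads that match several near-identical copies is not stated in the labels or headers, so counts of closely related unigenes are uncertain.

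Some unigenes have identifiers that share the number before the dot. Of 2968 such numbers with 2 or more tested unigenes, 707 had 2 or more that passed. In 575 of these the unigenes that passed all had one direction, and in 132 (18.7%) they had both. The length implied by the ratio of count to FPKM had a median of 1156 bases for the unigenes higher in ROC22, 1156 for those lower and 1161 for those that did not pass, where both values allowed it (5739, 5646 and 18009 unigenes).

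Unigenes paired with conserved miRNA families differed between the genotypes about as often as the rest. The degradome table pairs 119 unigenes with entries of 30 conserved families, and 110 of them were tested. Of the 110, 21 rose and 17 fell in ROC22 (34.5%, against 37.4% of all), with a median log2 fold change of -0.03 beside -0.00736 over all. Without GT86-887 middle stem replicate 1 in the fit, 23 rose and 19 fell (38.2%, against 43.0% of all), and the counts of the developmental, auxin and miR162 unigenes given below were the same. Tags in an early stem degradome library were listed for 51 of the 110, of which 20 passed. Over all 698 tested unigenes paired with any miRNA entry, 135 rose and 126 fell (37.4%). The known targets named below are those of a family in other plants. They were not checked for each entry or unigene, and some entries may be of the other arm of the hairpin. Tag numbers are raw and not scaled to the depth of their library. They come from 1 library per genotype and have no replicate check.

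Families that act on developmental transcription factors had the most paired unigenes, 56 tested, of which 12 rose and 12 fell in ROC22 (42.9%, against 37.4% of all). All 3 unigenes paired with miR444, a grass family known for MADS-box targets, fell, against 19.1% of all tested unigenes. The one with most tags, c137993.graph_c0, had 66.5, 81.9 and 64.2 CPM in ROC22 libraries, against 117, 103 and 161 CPM in GT86-887 libraries. The groups did not overlap (log2 fold change -0.84 ± 0.21, adjusted p = 0.00555), and its tags numbered 19 in ROC22 and 9 in GT86-887. The others were c135277.graph_c0, paired with miR444-z, at 1.44 ± 0.578 CPM in ROC22 and 3.76 ± 1.25 CPM in GT86-887, and c125122.graph_c0, paired with miR444-y and miR530-z, at 252 ± 9.25 CPM in ROC22 and 333 ± 17.3 CPM in GT86-887 (SD, n = 3 each). c125122.graph_c0 was named after its values were seen, and its adjusted p of 0.00882 was 0.064 without the filter on low counts.

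Within other developmental families the unigenes moved in both directions. Over all tested unigenes 18.3% rose and 19.1% fell, which is the share to set beside each family count here and below. For miR156, known for SPL factors, 4 of 15 rose and 2 fell. c137922.graph_c0, paired with miR156-x, had 34.0, 36.4 and 32.5 CPM in ROC22 libraries, against 9.29, 10.8 and 12.1 CPM in GT86-887 libraries (log2 fold change 1.67 ± 0.46, adjusted p = 0.01), while c136846.graph_c0, paired with miR156, miR157 and miR535 entries, had 18.8, 24.9 and 22.1 CPM in ROC22 and 31.4, 34.1 and 40.7 CPM in GT86-887 (-0.69 ± 0.21, adjusted p = 0.0161). Thus 2 unigenes paired with the same entry stood on opposite sides, each without overlap. The adjusted p of c136846.graph_c0 was 0.0726 without ROC22 replicate 1 and 0.0722 without GT86-887 replicate 3. Without GT86-887 middle stem replicate 1 it was 0.00562, and that of c137922.graph_c0 was 4.96e-07. The most abundant paired unigenes, c122943.graph_c0 with miR156-y and c123718.graph_c0 with miR157-y and miR535-x, were near equal, at 3584 ± 458 CPM in ROC22 and 3905 ± 409 CPM in GT86-887 for c122943.graph_c0, and 3268 ± 66.6 CPM in ROC22 and 3488 ± 142 CPM in GT86-887 for c123718.graph_c0 (SD, n = 3 each, adjusted p = 0.644 and 0.671).

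For miR172, known for AP2-like factors, 2 of 10 tested unigenes rose and none passed as lower. c135425.graph_c1 had 59.0, 52.8 and 61.0 CPM in ROC22 libraries, against 26.3, 32.5 and 25.9 CPM in GT86-887 libraries, without overlap (log2 fold change 1.03 ± 0.25, adjusted p = 0.00464). c124514.graph_c0 was at 27.5 ± 1.33 CPM in ROC22 and 19.0 ± 1.70 CPM in GT86-887 (SD, n = 3 each, adjusted p = 0.00167, and 0.0503 without the filter on low counts). c137236.graph_c0, the miR172-y unigene with most tags (17 in ROC22 and 33 in GT86-887), was at 17.9 ± 4.91 CPM in ROC22 and 27.4 ± 7.22 CPM in GT86-887 with groups that overlapped (adjusted p = 0.0784). It passed as lower without ROC22 replicate 1 (adjusted p = 0.0348) or GT86-887 replicate 1 (0.0331). c104350.graph_c0, also with tags in both genotypes, was at 15.2 ± 1.12 CPM in ROC22 and 16.8 ± 2.89 CPM in GT86-887 (adjusted p = 0.69).

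For miR169, known for NF-YA factors, 1 of 5 rose and 3 fell. c133192.graph_c0, paired with miR169-z, had 73.5, 86.8 and 76.1 CPM in ROC22 libraries, against 119, 116 and 125 CPM in GT86-887 libraries (log2 fold change -0.61 ± 0.13, adjusted p = 0.00167). Its groups were tight and did not overlap. Paired with miR169-y, c132990.graph_c1 fell (-1.33 ± 0.24, adjusted p = 0.000635) and c124547.graph_c1 rose (1.42 ± 0.43, adjusted p = 0.0159), the rise with an adjusted p of 0.0619 without ROC22 replicate 3 and 0.0698 without GT86-887 replicate 3. For miR164, known for NAC factors, 1 of 4 fell. That unigene, c131322.graph_c0, had 6.41, 4.76 and 3.95 CPM in ROC22 libraries, against 11.96, 19.4 and 14.9 CPM in GT86-887 libraries (log2 fold change -1.61 ± 0.34, adjusted p = 0.00181). For miR396, known for growth-regulating factors, 1 of 3 rose and none passed as lower. The one that rose, c123121.graph_c1, was named after its values were seen and had no tags. It had 14.9, 16.8 and 13.5 CPM in ROC22 libraries, against 6.82, 8.26 and 8.19 CPM in GT86-887 libraries, without overlap (log2 fold change 0.96 ± 0.16, adjusted p = 0.000298). The miR396 unigenes with tags, c121376.graph_c0 and c131841.graph_c0, had log2 fold changes of -0.17 ± 0.21 and -0.45 ± 0.23 and did not pass (adjusted p = 0.541 and 0.138). The unigene paired with miR159-x, c140872.graph_c1, fell (-1.01 ± 0.32, adjusted p = 0.0188), a call lost in 4 of 12 alternatives (adjusted p up to 0.0808). c138654.graph_c0 with miR535-z (1.197 ± 0.278) and c140286.graph_c0 with miR535-x (1.07 ± 0.22) rose, with adjusted p of 0.0035 and 0.00171, although each of these miR535 entries had at most 2 counts in any early stem small RNA library.

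Auxin families had 7 tested unigenes, of which 1 rose and 1 fell (28.6%). The one that fell, c139738.graph_c0, is paired with miR393-x, a family known for the F-box auxin receptors. It had 20.2, 19.7 and 19.7 CPM in ROC22 libraries, against 64.2, 47.2 and 48.5 CPM in GT86-887 libraries (log2 fold change -1.42 ± 0.16, adjusted p = 1.45e-05). The ROC22 libraries were nearly equal, and all lay below GT86-887. The other miR393 unigene, c110649.graph_c1, is paired with miR393-x and miR393-z and had 2 tags in ROC22 and 1 in GT86-887. It had 2.99, 3.38 and 3.04 CPM in ROC22 libraries, against 1.83, 2.58 and 2.67 CPM in GT86-887 libraries, higher in every ROC22 library, and did not pass (log2 fold change 0.41 ± 0.27, adjusted p = 0.239). The one that rose, c128889.graph_c0, is paired with miR167-x, of a family known for auxin response factors, and was named after its values were seen. It had 87.4, 89.6 and 103 CPM in ROC22 libraries, against 57.8, 56.5 and 52.9 CPM in GT86-887 libraries (0.74 ± 0.14, adjusted p = 0.00107). The miR160-x unigene c127776.graph_c1 had groups that overlapped, at 4.30 ± 1.09 CPM in ROC22 and 5.14 ± 0.986 CPM in GT86-887 (SD, n = 3 each, adjusted p = 0.503). None of the 4 unigenes paired with miR162, known for the Dicer-like enzyme DCL1, passed, and their log2 fold changes lay between -0.31 and 0.27.

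Nutrient and copper families had 27 tested unigenes, of which 5 rose and 3 fell (29.6%), or 7 and 4 without GT86-887 middle stem replicate 1 (40.7%). Those named by tags or size were c125529.graph_c0 with miR398-x, which rose (log2 fold change 1.44 ± 0.23, adjusted p = 0.000243), c135453.graph_c1 with miR395-z, of the sulfate assimilation family, which rose (1.07 ± 0.27, adjusted p = 0.0053), and c126382.graph_c1 with miR528-x, which fell (-1.60 ± 0.32, adjusted p = 0.00119). miR827 is known for SPX-domain proteins of phosphate balance. Its most tagged unigene, c132560.graph_c0 with 26 tags in ROC22 and 27 in GT86-887, was at 59.6 ± 8.51 CPM in ROC22 and 64.4 ± 14.4 CPM in GT86-887 (SD, n = 3 each), groups that overlapped. c140043.graph_c0, paired with the same miR827 entries, had 428, 362 and 522 CPM in ROC22 libraries, against 121, 113 and 134 CPM in GT86-887 libraries. Its groups lay far apart, yet its adjusted p was 0.057, and it passed in 4 of 12 alternatives, among them a fit of the 6 early stem libraries alone (adjusted p = 2.54e-05) and the fit without GT86-887 middle stem replicate 1 (adjusted p = 0.0415).

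**Figure D3:**
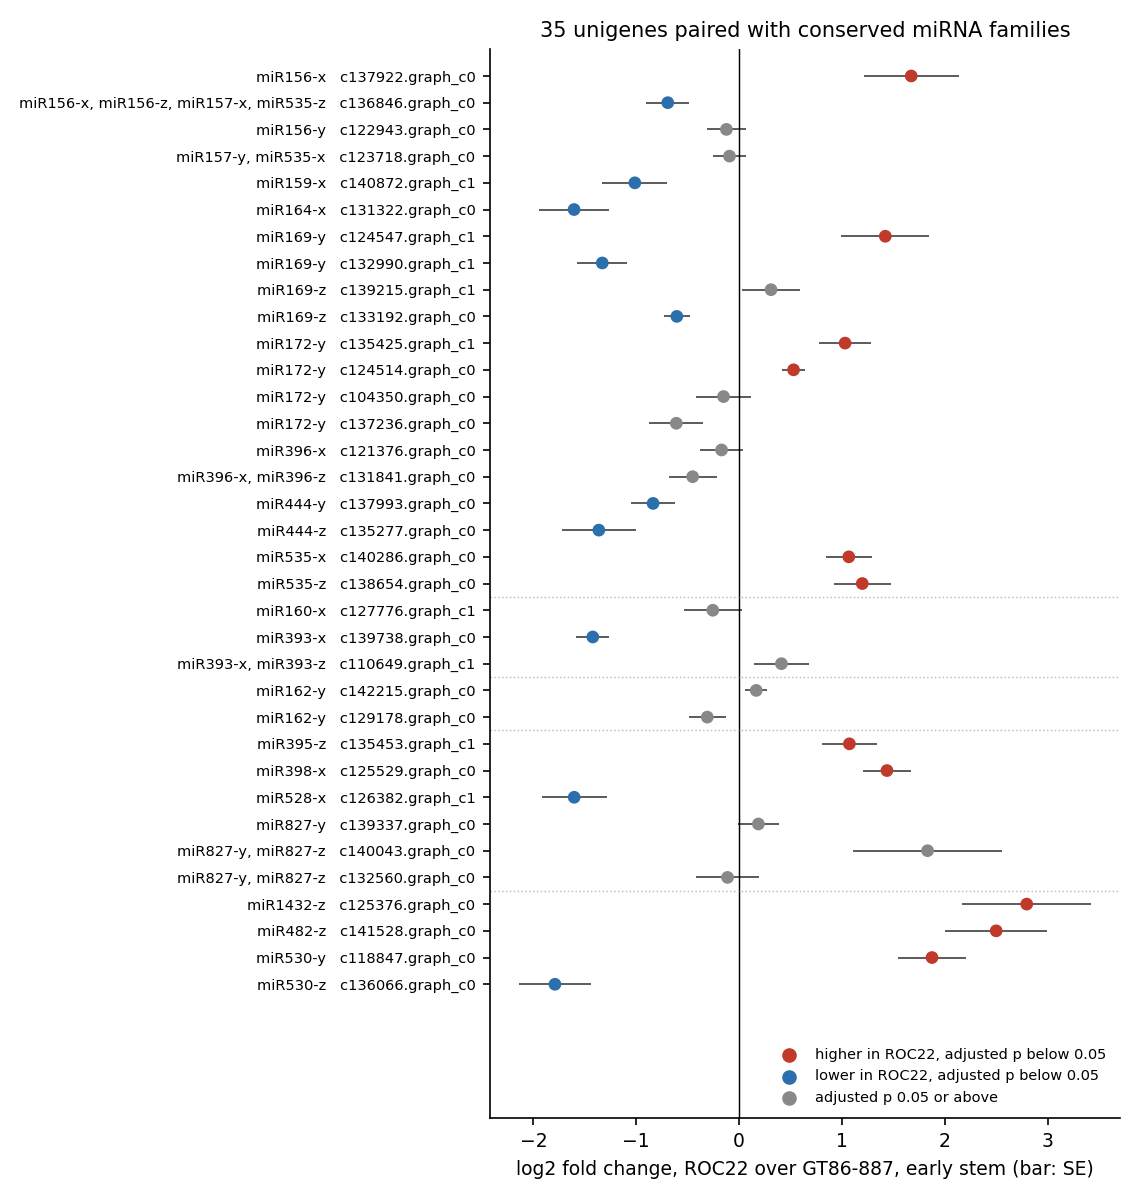
Log2 fold change of ROC22 over GT86-887 in early stem (points, with SE as bars) for 35 unigenes paired with conserved miRNA families, in the order of developmental, auxin, small RNA machinery, nutrient and copper, and other families from top to bottom. Red points passed the test as higher in ROC22 and blue as lower. 20 of the 35 were taken for their tags and 15 for having passed with at least a 2-fold difference, so the share of coloured points says nothing about the families.

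Among other families, the largest difference of a paired unigene was that of c125376.graph_c0, paired with miR1432-z. It had 2681, 3483 and 3285 CPM in ROC22 libraries, against 411, 480 and 469 CPM in GT86-887 libraries (log2 fold change 2.80 ± 0.63, adjusted p = 0.00275). GT86-887 middle stem replicate 1, which shares in the SE, had 3888 CPM, against 376 and 397 CPM in the other libraries of its group. Without that library in the fit, the adjusted p was 1.64e-09. Early leaf showed a like difference, with 2297 ± 240 CPM in ROC22 and 306 ± 28.5 CPM in GT86-887 (SD, n = 3 each). c141528.graph_c0, paired with miR482-z, was at 10.03 ± 1.35 CPM in ROC22 and 1.77 ± 0.742 CPM in GT86-887 (adjusted p = 0.00125), and c118847.graph_c0, paired with miR530-y, at 11.4 ± 3.57 CPM in ROC22 and 3.11 ± 0.861 CPM in GT86-887 (adjusted p = 0.000585). The partners of these last 2 unigenes, miR482-z and miR530-y, had 0 counts in all 6 early stem small RNA libraries.

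The miRNA entries themselves were counted in early stem small RNA libraries of 183654 to 560164 counts. Of 215 entries tested, 15 rose (6.98%) and 23 fell (10.7%) in ROC22, together 17.7%. Of the 40 tested entries that pair with the conserved-family unigenes, 4 passed, 2 in each direction. miR530-z had 47280, 20570 and 30730 CPM in ROC22 libraries, against 3236, 4386 and 10960 CPM in GT86-887 libraries (log2 fold change 2.41 ± 0.58, adjusted p = 0.00583). miR530-x, named after its values were seen, had 14840, 21390 and 8227 CPM in ROC22 libraries, against 1578, 1223 and 2739 CPM in GT86-887 libraries (3.004 ± 0.574, adjusted p = 0.000718). Both entries were higher in every ROC22 library, and since they differ by a shift of 1 base they are not independent.

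Lower in ROC22 were miR393-z, at 56.2, 28.1 and 42.4 CPM in ROC22 and 156, 105 and 204 CPM in GT86-887 (adjusted p = 0.00949), and miR167-x, named after its values were seen, at 17730 ± 6150 CPM in ROC22 and 59140 ± 8590 CPM in GT86-887 (SD, n = 3 each, adjusted p = 0.0429). Neither call held throughout: miR393-z lost it in 4 of 10 alternatives (adjusted p up to 0.0695) and miR167-x in 8 of 10 (up to 0.146). miR444-z was at 756, 591 and 929 CPM in ROC22 and 278, 384 and 286 CPM in GT86-887, without overlap, and did not pass (adjusted p = 0.1). The most abundant of the paired entries, miR396-x, was at 242200 ± 86100 CPM in ROC22 and 613800 ± 295000 CPM in GT86-887, with groups that overlapped (adjusted p = 0.103).

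Of the 4 entries that passed, miR530-z and miR167-x had a paired unigene that also passed. c136066.graph_c0, paired with miR530-z, had 9.82, 7.06 and 6.38 CPM in ROC22 libraries, against 32.5, 24.7 and 23.6 CPM in GT86-887 libraries. The groups did not overlap (log2 fold change -1.79 ± 0.35, adjusted p = 0.0012), while the miRNA was the higher one in ROC22. Its tags numbered 2 in ROC22 and 10 in GT86-887. Of the 4 unigenes paired with miR530-z, 2 fell and none rose, with log2 fold changes from -1.79 to 0.52. The other one that fell, c125122.graph_c0, is also counted under miR444. Over all tested unigenes 19.1% fell. Of the 5 paired with miR530-x, none passed, with log2 fold changes from -0.69 to 0.10, and c140559.graph_c0 passed as lower without GT86-887 middle stem replicate 1 (adjusted p = 0.0405). For miR167-x the entry was lower and its 1 paired unigene higher in ROC22. For miR393-x, which did not pass (adjusted p = 0.109), the entry and the unigene c139738.graph_c0 were both lower in every ROC22 library. The other unigene of miR393-x, c110649.graph_c1, which is the only one of miR393-z, was higher in every ROC22 library and did not pass. Further entries that did not pass had the sign of a paired unigene that passed. They include miR398-x (log2 fold change 1.52, adjusted p = 0.216) with c125529.graph_c0 and miR1432-z (1.24, adjusted p = 0.191) with c125376.graph_c0. The same held for miR164-x (-0.69, adjusted p = 0.391) with c131322.graph_c0. Others had the opposite sign, such as miR444-z with c135277.graph_c0. Whether a miRNA level bears on a unigene level was not tested, and mRNA and small RNA were sequenced in separate libraries.

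**Figure D4:**
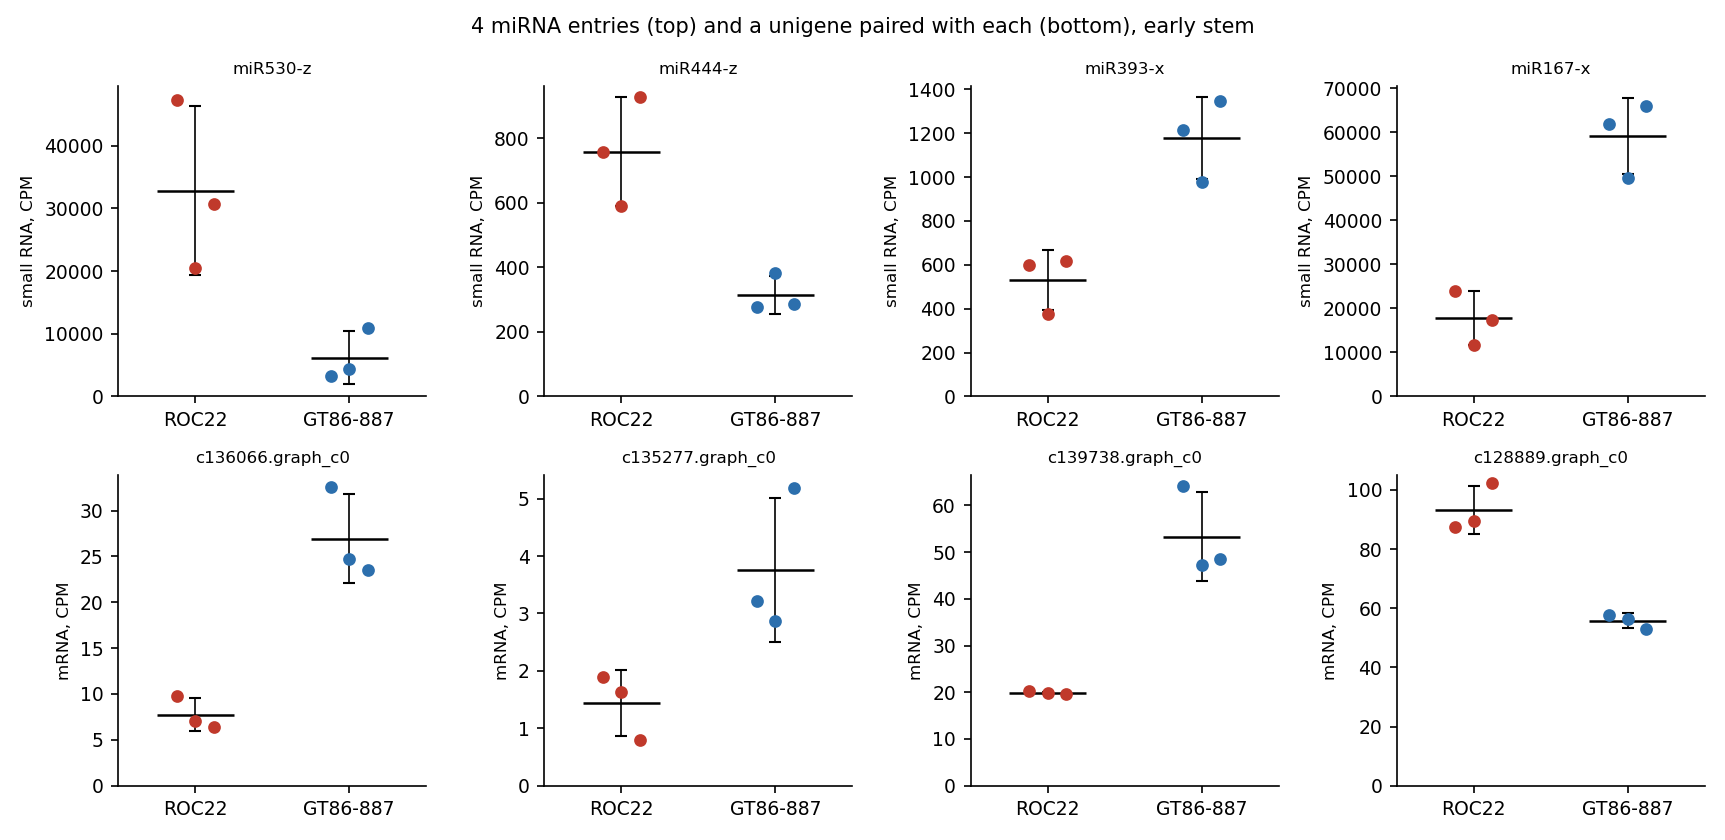
CPM of 4 miRNA entries (top row) and of a unigene paired with each in the degradome table (bottom row), in the 3 ROC22 and 3 GT86-887 early stem libraries, with the mean (line) and SD (bar). For miR530-z and miR444-z the entry is higher and the unigene lower in ROC22, for miR393-x both are lower, and for miR167-x the entry is lower and the unigene higher. The entries miR444-z and miR393-x did not pass. The 4 pairs were chosen after their values were seen and do not stand for all pairs. For miR398-x and c125529.graph_c0, not shown, both were higher in ROC22.

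More than 1 in 2 of the early differences recurred in later stem. Of the 13547 unigenes that passed at the early stage, 7170 also passed at the middle stage (52.9%), 7156 with the same sign. Of the 9377 that passed at the middle stage (25.9% of those tested) these were 76.5%. At the late stage 8284 also passed, 61.2% of the early and 71.1% of the 11650 late ones (32.2% of those tested), 8239 with the same sign. Without GT86-887 middle stem replicate 1, 13164 passed at the middle stage (34.9% of the 37679 then tested). At both stages 10315 passed, 63.7% of the early and 78.4% of the middle ones. The late stage then had 14411 (38.2%), and 10470 passed at both, 64.7% of the early and 72.7% of the late ones. The difference between stages was tested directly. Early minus middle passed for 1 unigene, which was lower (0.00276%), and early minus late for 50, together 0.138%, of which 16 were higher (0.0442%) and 34 lower (0.0939%). Without GT86-887 middle stem replicate 1 these counts were 37 (0.0982%) and 325 (0.863%), of 37679 tested. The count for early minus late was at most 2 without any single early stem library, 0 with the replicate block and 636 with DESeq2. At an unadjusted p below 0.05 there were 3697 for early minus middle and 4169 for early minus late, of 36199 tested in each. Few calls after adjustment therefore do not show that the stages were alike.

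The single unigene of early minus middle was c109461.graph_c1, outside the rule for named unigenes and named after its values were seen. It had 2.234, 1.995 and 2.919 CPM in ROC22 early stem, against 31.3, 32.0 and 34.6 CPM in GT86-887 early stem, and in middle stem 4.84, 4.12 and 4.43 CPM in ROC22, against 5.99, 12.3 and 10.1 CPM in GT86-887. The genotypes were far apart at the early stage and closer at the middle stage (early minus middle -2.70 ± 0.34 on the log2 scale, adjusted p = 0.0213, a call lost in 9 of 16 alternatives with adjusted p up to 0.139). In early minus late, the largest abundant ones were c123895.graph_c0, at 695 ± 316 CPM in ROC22 and 58.7 ± 16.3 CPM in GT86-887 early stem, and 27.5 ± 5.23 CPM in ROC22 and 25.1 ± 13.0 CPM in GT86-887 late stem (SD, n = 3 each, 3.43 ± 0.62, adjusted p = 0.0438), and c130967.graph_c0, at 24.3 ± 5.72 CPM in ROC22 and 186 ± 23.7 CPM in GT86-887 early stem, and 44.1 ± 15.6 CPM in ROC22 and 63.1 ± 21.0 CPM in GT86-887 late stem (-2.41 ± 0.40, adjusted p = 0.0406). Each of these last 2 calls was lost in 12 of 17 alternatives, with adjusted p up to 0.136 for c123895.graph_c0 and 0.126 for c130967.graph_c0.

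The stem difference was set against that of early leaf in a fit of the 12 early libraries. This fit treated stem and leaf libraries of the same number as unpaired. Whether they share a plant was not tested. Stem minus leaf passed for 6769 of 37746 unigenes (17.9%), 3033 higher (8.04%) and 3736 lower (9.9%). In early leaf itself, 38.7% of the 37746 unigenes passed. Among the unigenes that passed in early stem and were tested in both fits, 7079 also passed in early leaf, 55.0% of the 12877 stem and 54.0% of the 13116 leaf unigenes, 6519 of them with the same sign and 560 with the opposite sign. For 3857 of the stem unigenes (30.0%) stem minus leaf itself passed. In 2366 of these leaf did not pass, and in 559 it passed with the opposite sign.

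The abundant unigenes with the largest stem minus leaf difference had opposite signs in the 2 tissues. c102023.graph_c0 had 266, 371 and 406 CPM in ROC22 stem, against 89.8, 80.9 and 84.0 CPM in GT86-887 stem. In leaf it had 5.51, 3.17 and 4.14 CPM in ROC22, against 21.7, 23.8 and 26.5 CPM in GT86-887. It was thus higher in ROC22 stem and lower in ROC22 leaf, without overlap in either, with CPM of stem and leaf scaled in separate fits (stem minus leaf 4.51 ± 0.28 on the log2 scale, adjusted p = 1.92e-06). c130967.graph_c0 had 27.3, 17.8 and 28.0 CPM in ROC22 stem, against 171.1, 173 and 213 CPM in GT86-887 stem, and 17.6, 41.8 and 109 CPM in ROC22 leaf, against 16.6, 14.1 and 22.5 CPM in GT86-887 leaf (-4.60 ± 0.68, adjusted p = 0.00084). Its leaf groups overlapped.

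For some paired unigenes the stem difference itself differed from that of leaf. The miR530-z unigene c136066.graph_c0, lower in ROC22 stem, was at 255 ± 19.8 CPM in ROC22 and 292 ± 38.3 CPM in GT86-887 leaf (SD, n = 3 each, stem minus leaf -1.61 ± 0.25, adjusted p = 0.00103). The miR827 unigene c140043.graph_c0, highest in ROC22 stem, was at 109 ± 73.5 CPM in ROC22 and 212 ± 85.1 CPM in GT86-887 leaf (stem minus leaf 2.78 ± 0.57, adjusted p = 0.00555). For the miR1432-z unigene c125376.graph_c0, with like differences in both tissues, stem minus leaf was -0.13 ± 0.20 (adjusted p = 0.722).

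**Figure D5:**
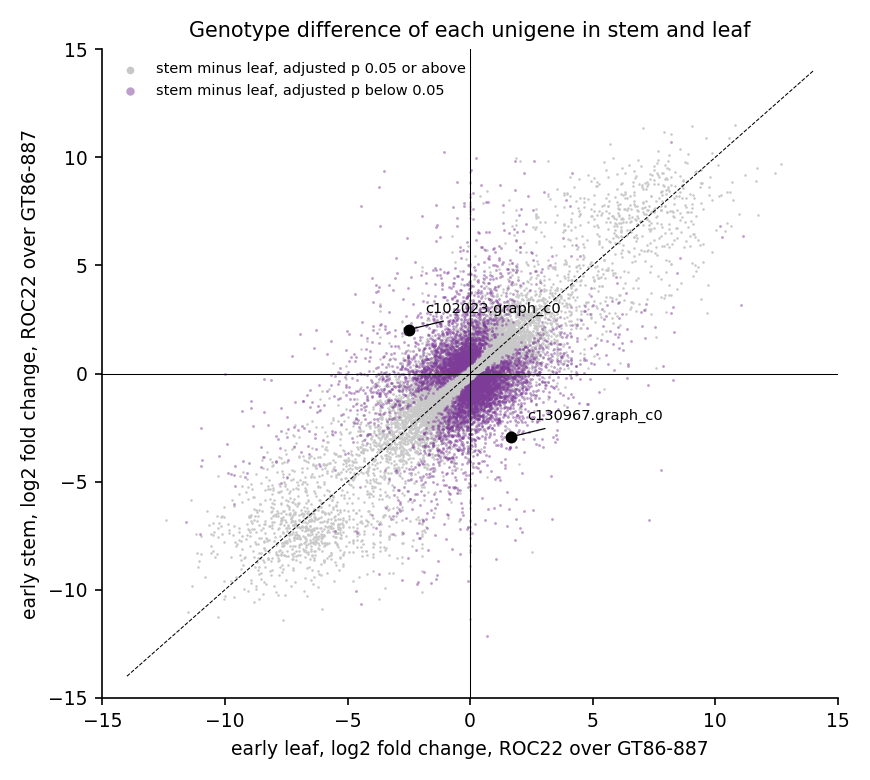
Log2 fold change of ROC22 over GT86-887 in early stem (up) against that in early leaf (across) for each unigene tested in both fits, with equal differences on the dashed line. Purple points passed the test of stem minus leaf, and the 2 marked unigenes, c102023.graph_c0 and c130967.graph_c0, have stem and leaf differences of opposite sign.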

How the data were processed

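Trizol was used to extract total RNA, small RNAs were size-selected on gels and degradome libraries captured RNA with a 5′ monophosphate, per the labels' protocols. The authors deposited a whole-read count and an FPKM value per unigene and library, a count per miRNA entry, and other numbers, degradome tags per miRNA and unigene pair, in which a cell without a number was read as 0. The aligner, the assembly and the counting program are not given in the sources here. FPKM values served for levels per length only.

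The test was that of edgeR 4.0.16 (R 4.3.3) on counts of the 18 stem libraries (TMM scaling, filterByExpr at its defaults, 1 coefficient per group, quasi-likelihood test, Benjamini-Hochberg adjustment over all tested unigenes, call at an adjusted p below 0.05). Stem minus leaf was fitted on the 12 early mRNA libraries and miRNAs on the 12 stem small RNA libraries. The SE is the log2 fold change over the square root of F. CPM of the stem fit are given, also for early leaf from its own fit. DESeq2 1.42.0, RLE size factors, no filter, a replicate block, the 6 early stem libraries alone and fits without 1 library were alternatives. The fits were tested on simulated data. A count of 0 allows 3 counts, for counting error only.

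Named were the 2 unigenes per direction with the largest difference among those that passed, did not overlap, averaged at least 100 CPM and had at least 10 counts in each library. Also named were the most abundant unigene, 1 per direction for each stage or tissue difference, the 20 paired unigenes with most tags, and other paired unigenes past 2-fold by adjusted p, with their miRNA entries. Members and lists were chosen with earlier results of these data known.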

Additional observations from a re-analysis of the deposited data

Results flagged for a closer look

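The genotype difference of early stem was not the same as that of another stage or of leaf for some unigenes, by edgeR's test of the difference between differences. The count was 1 for early minus middle stem, 50 for early minus late stem and 6769 for stem minus leaf. The count of 50 was at most 2 without any single early stem library and 0 with the replicate block, but 636 with DESeq2 and 325 without GT86-887 middle stem replicate 1.

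Among named unigenes, values are differences of log2 fold changes. For early minus middle stem it was -2.7 for c109461.graph_c1. For early minus late stem it was 3.43 for c123895.graph_c0, -2.41 for c130967.graph_c0 and -1.85 for c109461.graph_c1.

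For stem minus leaf, it was 4.51 for c102023.graph_c0, 4.17 for c113334.graph_c0, 3.62 for c123895.graph_c0, 2.45 for c124986.graph_c0, -0.77 for c129914.graph_c0, -2.11 for c109461.graph_c1 and -4.6 for c130967.graph_c0. Of the unigenes paired with a miRNA, positive values were 3.3 for c141528.graph_c0, 2.78 for c140043.graph_c0, 1.77 for c118847.graph_c0, 1.55 for c125529.graph_c0, 1.17 for c137236.graph_c0, 0.96 for c135425.graph_c1, 0.94 for c138654.graph_c0, 0.65 for c139337.graph_c0, 0.6 for c124514.graph_c0 and 0.53 for c128889.graph_c0. Negative values were -2.55 for c127776.graph_c1, -1.61 for c136066.graph_c0, -1.55 for c131322.graph_c0, -0.73 for c123718.graph_c0, -0.71 for c140872.graph_c1 and -0.43 for c125122.graph_c0.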

How the results depend on the processing

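The early stem count of 13547 stayed within 1.5 times under every alternative run: 13456 with RLE size factors, 14453 with DESeq2, 13028 without the filter, 12728 with the replicate block, 15575 with the 6 libraries alone, 16192 without GT86-887 middle stem replicate 1 and 10948 to 11779 without 1 early stem library. The counts for differences between stages did not. Early minus middle, 1 as reported, was 295 with DESeq2, 341 without the filter and 0 to 37 without 1 library, with 37 without GT86-887 middle stem replicate 1. Early minus late, 50 as reported, was 636 with DESeq2, 444 without the filter, 0 with the replicate block (3741 at an unadjusted p below 0.05) and 0 to 325 without 1 library. It was at most 2 without any single early stem library and 0 to 50 without 1 late stem library. The 325 were without GT86-887 middle stem replicate 1, a fit added after seeing the data. The cause was not tested. The paired list counted 20 of 51 instead of 38 of 110 when limited to unigenes with a tag, since fewer were tested. The 38 miRNA entries were 25 to 40 without 1 library, with 25 without GT86-887 early stem replicate 3.

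Signs turned for values that had not passed. Without 1 early stem library, the log2 fold change of c132560.graph_c0 ran between -0.257 and 0.0656 (without GT86-887 replicate 1), that of miR827-y between -0.223 (without ROC22 replicate 1) and 0.582, that of miR827-z between -0.131 (likewise) and 1.06, and that of miR169-z between -0.054 (without ROC22 replicate 2) and 0.598. DESeq2 gave no adjusted p for c125376.graph_c0. Same-numbered libraries of the genotypes showed no common deviation (r = 0.018, -0.091 and -0.021). Libraries with unlike numbers had r from -0.116 to 0.149. With so few libraries, this check cannot settle whether the numbers pair them. Small RNA depth, 183654 counts in the shallowest library, limits the rarer miRNA entries, and single degradome libraries allow no test of tags.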

Other observations

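GT86-887 middle stem replicate 1 held unigenes of both genotypes. Of 73 unigenes counted in every ROC22 early and late stem library (at least 20 counts each) and at 0 in those of GT86-887, it had 37 at 5 counts or more (50.7%), while the other 2 GT86-887 middle stem libraries had 0 and the ROC22 middle stem libraries had 73 each. Of 121 unigenes chosen the other way round it had 37 (30.6%), while the other 2 GT86-887 libraries had 121 each and the ROC22 libraries 0, 0 and 1. The leaf library of the same genotype, stage and number had 32 of the 73 (43.8%) and 34 of the 121 (28.1%), against 3 of the 73 (4.11%) and 97 to 99 of the 121 in the other GT86-887 middle leaf libraries. The early stem libraries chose the sets and could not be checked with them. Of the 73, ROC22 early leaf libraries had 63 to 66 and GT86-887 early leaf libraries 3 each, and of the 121, ROC22 early leaf libraries had 3 to 5 and GT86-887 early leaf libraries 102 to 111.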
